A study of Homo sapiens with 14 samples.

Results

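A set of 8 genes that write, keep or remove DNA methylation was followed through RNA-seq of IMR90, primary human fetal lung fibroblasts. The members, DNMT1, DNMT3A, DNMT3B, UHRF1, HELLS, TET1, TET2 and TET3, were chosen by name, with earlier results of these data known. Each was found in all the tables, among 59861 genes of the old and young tables, 54628 symbols of the knockdown tables and 38716 symbols of the ICM tables. The series held 14 samples in 7 groups of 2. I79 young, I79 old, I10 young and I10 old are proliferating and replicatively senescent cells of 2 IMR90 isolates. A single table stood for each of these groups, so that they have no SD. I79 ICM is the I79 isolate treated with inflachromene (ICM), a compound directed at HMGB1 and HMGB2, which are chromatin proteins. WT is labelled wild type and HMGB2 KD was made, per the study's methods, with siRNA against HMGB2. The labels give neither their isolate nor whether WT received a control siRNA. The labels give neither a passage number nor the dose and duration of ICM. All cells were grown near confluence and poly(A) RNA was sequenced from bulk cultures, in which fewer cells expressing a gene and less RNA per cell cannot be told apart.

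DNA methylation is copied at replication, when UHRF1 binds hemimethylated DNA and brings in the maintenance methyltransferase DNMT1, while the remodeller HELLS opens compact chromatin to the enzymes. DNMT3A and DNMT3B set methylation on unmethylated DNA, and the TET dioxygenases TET1, TET2 and TET3 oxidise methylcytosine on the way to its removal. Fibroblasts that reach replicative senescence stop copying their DNA and are known to lose methylation at late-replicating regions.

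On GRCh37, the build of the submitters' processing notes, DNMT1 occupies chr19:10244018-10341962 on the minus strand and UHRF1 chr19:4903092-4962165 on the plus strand. HELLS lies at chr10:96305086-96373662 and TET1 at chr10:70320094-70454244, both on the plus strand. DNMT3A lies at chr2:25450724-25565459 on the minus strand and TET3 at chr2:74212037-74335303 on the plus strand. TET2 lies at chr4:106067032-106200973 and DNMT3B at chr20:31350191-31397165, both on the plus strand. TET2 carries an antisense gene, TET2-AS1, within its span, and S1PR2, a coding gene on the same strand, lies within the span of DNMT1. Strand use in counting is not stated, so reads of such overlaps cannot be assigned with certainty.

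The bases around 4 starts are shown, those of the 3 members called in old cells and that of a DNMT3A transcript listed at 0 there. Each window holds 100 bases before the start and 30 bases from it, read 5′ to 3′ on the strand of the gene from GRCh37. Capitals mark matches to an E2F-type motif, searched on both strands as TTTCCCGC, TTTGGCGC, TTTGCCGC and TTTCGCGC, of which the last can overlap its own reverse. DNMT1-202 is read from chr19:10305600-10305729 on the minus strand, UHRF1-208 from chr19:4909413-4909542 on the plus strand, HELLS-201 from chr10:96305445-96305574 on the plus strand and DNMT3A-203 from chr2:25475151-25475280 on the minus strand. The first 3 are the MANE transcripts, the reference transcript chosen for a gene.
DNMT1-202: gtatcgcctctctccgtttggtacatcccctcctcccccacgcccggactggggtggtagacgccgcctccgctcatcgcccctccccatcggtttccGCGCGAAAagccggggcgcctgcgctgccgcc
UHRF1-208: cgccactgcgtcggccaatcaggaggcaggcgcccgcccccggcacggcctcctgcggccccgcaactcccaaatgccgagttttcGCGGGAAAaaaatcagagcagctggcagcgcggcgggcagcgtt
HELLS-201: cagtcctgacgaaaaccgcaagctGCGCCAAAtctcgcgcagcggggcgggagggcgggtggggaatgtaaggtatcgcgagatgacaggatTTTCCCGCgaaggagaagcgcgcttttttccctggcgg
DNMT3A-203: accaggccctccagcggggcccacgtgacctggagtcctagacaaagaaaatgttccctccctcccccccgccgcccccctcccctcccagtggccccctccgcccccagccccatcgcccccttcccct

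The motif was found 2 bases before the start of DNMT1-202, 14 bases before the start of UHRF1-208, and 76 and 8 bases before the start of HELLS-201. DNMT1-201, the DNMT1 transcript with most counts, begins upstream of the window printed. Among the MANE start windows of the 8 members, 3 held the motif, those of DNMT1, UHRF1 and HELLS. It was held by 376 of 18922 MANE start windows of the same length, or 1.99%, and by 10 of 14 windows of a list of S-phase genes. Windows of DNMT3A, DNMT3B, TET1, TET2 and TET3 held no match in these letters, and neither did that of DNMT3A-203. A match is a description of the letters and was not set against binding data. Windows of the members held between 5 (TET1) and 22 (TET3) CpG dinucleotides, against a median of 12 over all MANE starts, and the internal start of DNMT3A-203 held 6.

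The tables held between 14991385 and 20632959 estimated counts for the old and young groups, between 33561766 and 41168932 counts for WT and HMGB2 KD, and 13290131 and 10971132 reads for the ICM libraries. HMGB2, the siRNA target, measured 27.1 and 27.3 CPM in the WT libraries and 3.22 and 3.64 CPM in the knockdown libraries, CPM being counts scaled to library size by TMM. In all groups the fibroblast genes COL1A1, COL1A2, COL3A1 and VIM were abundant, the summed level of 8 fibroblast markers lying between 10752 and 32873 CPM. Of 8 markers of other cell types, CDH5 was at 0 in every table, and EPCAM, CDH1 and PTPRC stayed under 1 CPM. In old cells LUM, a matrix proteoglycan, was the 1 fibroblast marker of 8 called, higher by 0.92 on the log2 scale (SE 0.12, edgeR adjusted p = 0.0086). PDGFRA (log2 -1.18), COL3A1 (log2 -0.96) and VIM (log2 1.13) were not called. CD68, a lysosomal protein of macrophages, stood at 21.4 and 23.2 CPM in the young columns and at 158 and 84.5 CPM in the old ones. MYH11, a smooth muscle myosin, stood at 32.3 and 28.5 CPM in young and 3.74 and 2.71 CPM in old. The 8 markers together summed to 60.2 and 57.3 CPM in young and 163 and 89.1 CPM in old, and their part in the results was not tested.

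The old and young columns address what happens to this machinery when cells are passaged to senescence. All 8 members were lower in old than in young in both isolates, and 3 were called, all of them maintenance genes that fell: UHRF1, HELLS and DNMT1. A call needed an adjusted p under 0.01 by edgeR's quasi-likelihood test and a log2 fold change beyond 0.6 in either direction, with the isolates as the replicates. Over all 15134 genes tested, 9.36% were called in either direction and 3.70% were called lower. In the joint fit 50.5% of them had a negative log2 fold change. The share of all genes lower in both isolates was not computed. The median log2 fold change was -0.79 over the 8 members and -0.009 over all genes.

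UHRF1, the reader of hemimethylated DNA, stood at 65.6 CPM in I79 young and 8.25 CPM in I79 old, and at 68.5 CPM in I10 young and 15.5 CPM in I10 old. In the joint fit old cells held 17.1% of the young level. The fall was 7.95-fold in I79 (log2 -2.99, 95% counting interval -3.25 to -2.74) and 4.41-fold in I10 (log2 -2.14, interval -2.33 to -1.95). These intervals cover counting error only and do not overlap, but with 1 table per age and isolate the difference between isolates was not tested. In the joint fit the log2 fold change was -2.55 (SE 0.23, edgeR adjusted p = 0.0052).

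HELLS, the chromatin remodeller, stood at 18.8 CPM in I79 young and 3.09 CPM in I79 old, and at 26.5 CPM in I10 young and 6.69 CPM in I10 old. The fall was 6.08-fold in I79 and 3.96-fold in I10, with a joint log2 fold change of -2.27 (SE 0.21, edgeR adjusted p = 0.0055). Without the isolate as a covariate the adjusted p of HELLS was 0.014 and its call was lost.

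DNMT1, the maintenance methyltransferase, stood at 128 CPM in I79 young and 53.0 CPM in I79 old, and at 132 CPM in I10 young and 65.2 CPM in I10 old. Its fall was smaller than those of UHRF1 and HELLS, by 2.41-fold in I79 and 2.02-fold in I10, with 45.3% of the young level left. The joint log2 fold change was -1.14 (SE 0.11, edgeR adjusted p = 0.0058).

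**Figure D1:**
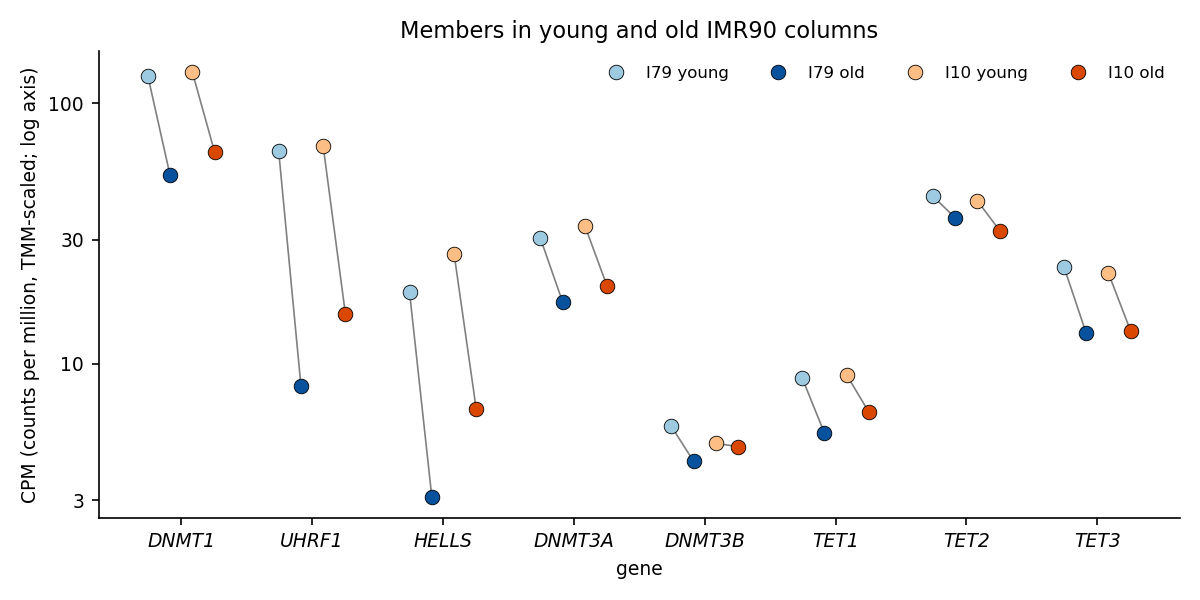
CPM (counts scaled to library size by TMM, log axis) of the 8 members in the I79 and I10 young and old columns, 1 point per column, with lines joining the ages of an isolate. Every old point lies below its young point, from 65.6 to 8.25 CPM for UHRF1 in I79 down to 4.95 to 4.81 CPM for DNMT3B in I10.

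Neither de novo enzyme was called. DNMT3A stood at 30.3 CPM in I79 young and 17.3 CPM in I79 old, and at 33.8 and 19.8 CPM in I10 young and old. Its log2 fold change of -0.79 (SE 0.12, edgeR adjusted p = 0.013) missed the threshold of 0.01. DNMT3B had between 78 and 95 counts per column and stood at 5.76 and 4.23 CPM in I79 and 4.95 and 4.81 CPM in I10. Its log2 fold change was -0.24 (SE 0.24, edgeR adjusted p = 0.48), and the counting interval in each isolate included 0.

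Of the erasers, TET3 stood at 23.6 CPM in I79 young and 13.1 CPM in I79 old, and at 22.3 and 13.4 CPM in I10. Its log2 fold change of -0.79 (SE 0.14, edgeR adjusted p = 0.017) was as large as that of DNMT3A and likewise missed the threshold. TET1 stood at 8.83 and 5.43 CPM in I79 young and old and at 9.07 and 6.52 CPM in I10, a log2 fold change of -0.59 (SE 0.19, edgeR adjusted p = 0.077). TET2 stood at 43.9 and 36.4 CPM in I79 and 42.2 and 32.4 CPM in I10, a log2 fold change of -0.33 (SE 0.11, edgeR adjusted p = 0.083). At an adjusted p under 0.05 with the same fold minimum, DNMT3A and TET3 were called as well, which made 5 of 8, where 25.4% of all genes were called.

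**Figure D2:**
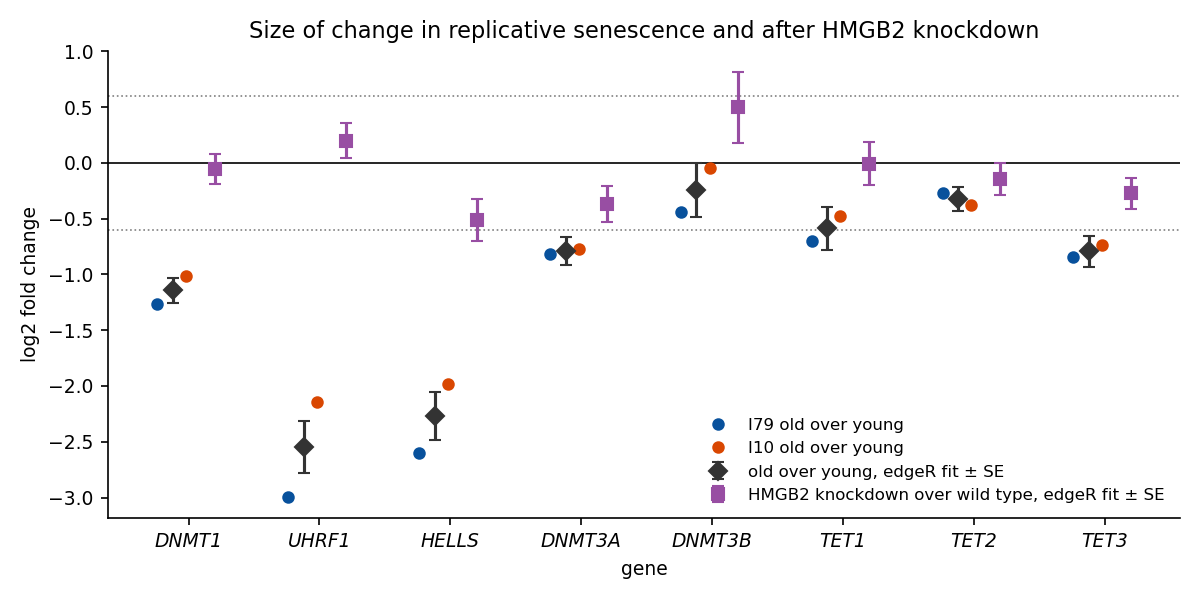
Log2 fold changes of the members, old over young for each isolate (circles, no error available) and for the joint fit (diamonds, bars are 1 SE), and HMGB2 knockdown over wild type (squares, bars are 1 SE). Dotted lines mark the fold minimum of 0.6, and UHRF1 and HELLS lie below -1.9 in both isolates while no knockdown value passes 0.6.

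Per length, in TPM, the deposited level scaled to transcript length and summed per gene, the young columns were ordered alike in both isolates. DNMT1 was highest at 51.9 TPM in I79 and 59.4 TPM in I10, followed by UHRF1 at 29.3 and 31.5 TPM, HELLS at 9.35 and 14.1 TPM and DNMT3A at 9.17 and 12.4 TPM. TET2 came next at 7.63 and 7.58 TPM, then TET3 at 3.55 and 3.48 TPM, DNMT3B at 2.49 and 2.35 TPM and TET1 at 1.58 and 1.67 TPM. HELLS and DNMT3A lay within the gap between isolates and cannot be ordered.

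In old cells the order changed below DNMT1, which stood at 22.6 TPM in I79 and 25.2 TPM in I10. UHRF1 was down to 3.33 and 5.98 TPM, beside TET2 at 5.81 and 4.91 TPM and DNMT3A at 5.03 and 4.82 TPM, and those 3 were not ordered alike in the isolates. HELLS was down to 1.61 and 3.18 TPM. UHRF1 amounted to 56.6% and 52.9% of the DNMT1 level in young I79 and I10, and to 14.7% and 23.7% in old. The summed TPM of the 3 methyltransferases was 4.97 times that of the 3 TET genes in I79 young and 3.45 times in I79 old, and 5.84 and 4.18 times in I10. The ratio was lower in old in both isolates, and with 1 column per group it was not tested.

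The tables of old and young cells hold estimated counts per transcript, which rest on how reads shared by transcripts were divided, and they are given here as a description. A short DNMT3A transcript was seen in young columns only. DNMT3A-203 begins inside the gene (chr2:25455845-25475180, minus strand) and codes for 723 residues, against 912 for the long transcripts DNMT3A-201 and DNMT3A-202, and it lacks their N-terminal part. It held 96.8 estimated counts in I79 young and 178 in I10 young, 20.4% and 27.5% of the gene's counts, and was at 0 in both old columns. Set against a floor of 3 counts per column, it was at least 42.7-fold lower in I79 old and at least 67.2-fold lower in I10 old. These bounds are scaled to the table totals without TMM, and they depend on that scaling and on the floor. With TMM they would be smaller.

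The long DNMT3A-201 held 254 and 226 estimated counts in I79 young and old and 353 and 240 in I10. DNMT3A-202 held 109 and 74.0 in I79 and 61.4 and 109 in I10, so that its direction differed between isolates. With DNMT3A-203 left out, DNMT3A stood at 24.1 and 17.3 CPM in I79 young and old and at 24.5 and 19.8 CPM in I10. Its log2 change was then -0.48 in I79 and -0.31 in I10, against -0.81 and -0.77 for the whole gene.

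HELLS-201, the full-length transcript of 838 residues, held 175 estimated counts in I79 young and 0 in I79 old, and 295 and 47.7 in I10. HELLS-202 begins inside the gene, codes for 431 residues and has the longer mRNA. It held 107 and 51.0 estimated counts in I79 and 197 and 62.2 in I10. HELLS-202 thus made up 36.5% of HELLS counts in I79 young and 89.6% in I79 old, and 38.8% and 51.4% in I10.

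UHRF1-207 held between 92.3% and 94.7% of UHRF1 counts in I79 young, I10 young and I10 old, and 52.7% in I79 old. DNMT1-201 held between 66.1% and 74.9% of DNMT1 counts in all 4 columns. DNMT1-227, annotated as a nonsense-mediated decay transcript with a coding part of 89 residues, held 20.9% and 20.0% in I79 young and old. In I10 young and old it held 13.2% and 29.5%. Scaled to the table totals, DNMT1-201 was 2.54-fold lower in I79 old and 2.70-fold lower in I10 old. DNMT1-227 was 2.82-fold and 1.09-fold lower. In I10 it held 333 and 347 estimated counts in young and old, so its direction there depends on the scaling. Folds by table totals use no TMM factor and cannot be set beside the TMM-scaled folds of the whole gene. The main DNMT3B transcript differed between isolates, and its share was higher in old than in young in both. DNMT3B-203, of 770 residues, held 59.5% and 91.9% of its counts in I79 young and old and none in I10. DNMT3B-204, of 833 residues, held 64.5% and 90.5% in I10 young and old. DNMT3B-202, the MANE transcript of 853 residues, held 11.1% and 10.7% in I79 and I10 young and was at 0 in both old columns, on at most 10.2 estimated counts in young. TET1 was listed with 1 transcript, TET2-203 held between 83.9% and 90.4% of TET2 counts, and TET3-202 at least 97.3% of TET3 counts.

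**Figure D3:**
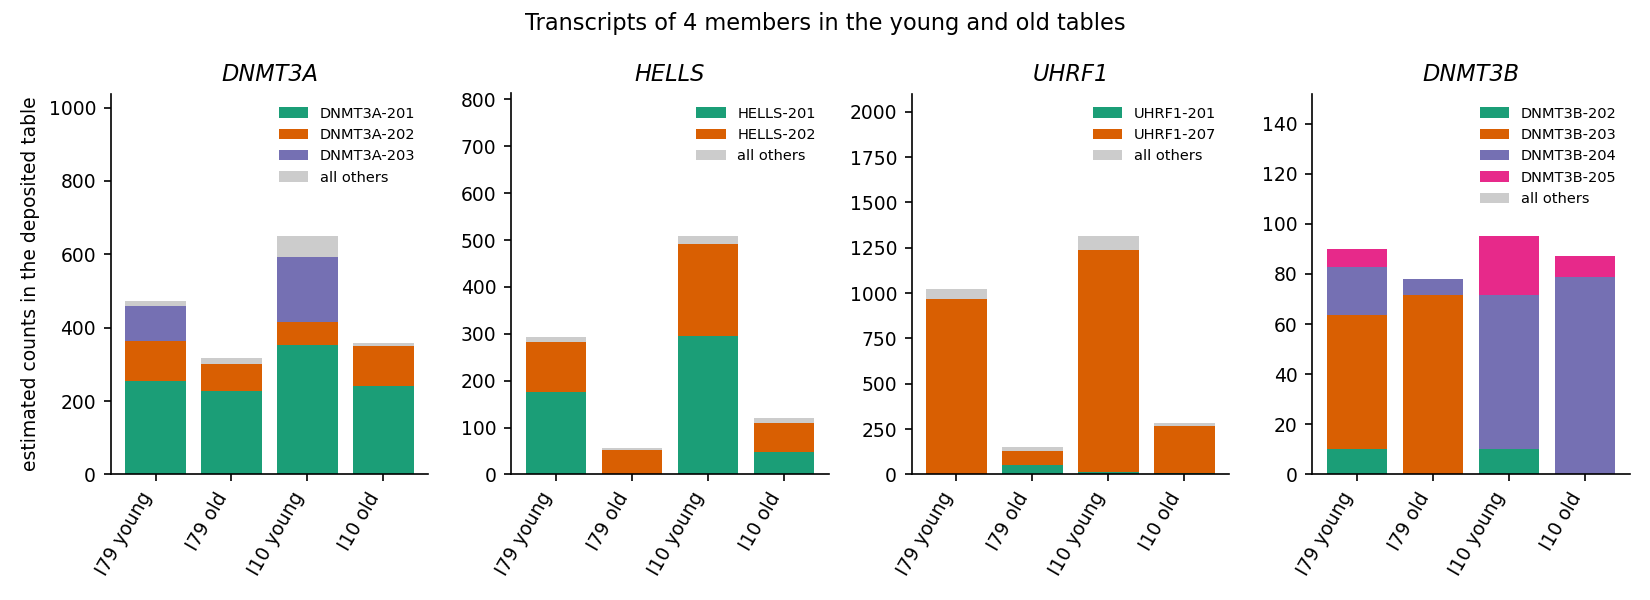
Estimated counts of the transcripts of DNMT3A, HELLS, UHRF1 and DNMT3B in the 4 old and young columns, stacked, with transcripts under 10% in all columns in grey; counts are not scaled to the table totals. DNMT3A-203 is present in young and at 0 in both old columns, and DNMT3B-203 is present in I79 only.

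Genes that work with the members were counted in the same fit. For these lists, here and after knockdown, rose and fell mean called higher and called lower. Of 10 tested partners of methyltransferases, 2 fell, CDCA7, which recruits HELLS to chromatin (log2 -2.44, SE 0.21), and LIG1, the replicative DNA ligase (log2 -1.31, SE 0.14). In all, 9 of the 10 had a negative log2 fold change, where 50.5% of all genes tested did. Among the uncalled, PCLAF lay at log2 -2.16 (SE 0.33, edgeR adjusted p = 0.013). CDCA7 stood at 20.7 and 24.2 CPM in young and 4.67 and 3.59 CPM in old. The median of the partners was -0.70, against -0.009 over all genes. UHRF2, the paralogue of UHRF1, stood at 60.7 and 70.0 CPM in young and 59.2 and 72.9 CPM in old (log2 0.011, SE 0.099). DNMT3L, the cofactor of DNMT3A in germ cells, was at 0 in every table.

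Of 8 readers of methyl-CpG 1 rose, ZBTB4, a zinc finger protein (log2 0.97, SE 0.12), from 115 and 117 CPM to 249 and 208 CPM. Of 14 tested genes of active demethylation 2 rose, the stress genes GADD45A (log2 1.56, SE 0.13) and GADD45B (log2 1.29, SE 0.14). In that list 2 fell, the repair enzymes PARP1 (log2 -1.32, SE 0.10) and APEX1 (log2 -0.97, SE 0.11). The medians of these lists were -0.0021 for the readers and -0.13 for active demethylation. Of 11 genes of methyl donor supply 1 fell, SHMT1, a folate-cycle enzyme (log2 -2.08, SE 0.21).

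Of 14 S-phase genes 10 fell and all 14 had a negative log2 fold change, where 50.5% of all genes tested did. The median over the list was -1.98. Among those called, the 4 with the largest falls were CDC45 (log2 -2.75), CDC6 (-2.70), GINS2 (-2.23) and MCM3 (-2.17), all parts of origin licensing or firing. DNMT1, UHRF1 and HELLS thus changed in columns in which replication genes were lower too, and the part of a lower share of cycling cells was not tested. Of 12 germline genes that methylation keeps silent in somatic cells, edgeR tested 2 and DESeq2, with no filter on low counts beforehand, gave values for 9. By either test 0 were called and 0 reached an unadjusted p under 0.05. The median log2 fold change was -0.14 over the 2 and 0.83 over the 9. All but MOV10L1 stayed under 1 CPM in the old and young tables. DESeq2 can leave genes with few counts without an adjusted p. At these levels a call could hardly arise, so its absence does not show that these genes were unchanged.

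The genes nearest to a member were sought over 3 log2 changes, I79 old over young, I10 old over young and HMGB2 KD over WT, among 12774 genes tested in both fits, by Euclidean distance. UHRF1 lay nearest to the kinetochore gene NDC80 (0.14 away), TAF9B (0.25) and the mitotic kinesin KIF11 (0.26). HELLS lay nearest to DEPDC1B (0.15), C16orf89 (0.20) and SFXN2 (0.21), and DNMT1 to GGCT (0.068), ZNF30 (0.081) and PSRC1 (0.084). The nearest genes of DNMT3A were TRMT10C, SALL2 and C5, those of DNMT3B were CTNNBIP1, MSN and ACOT7, and those of TET1 were PSMB2, ZNF260 and COQ4. TET2 lay nearest to ZKSCAN3, MTFMT and ZNF267, and TET3 to TIMM8B, SRSF6 and CYREN.

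The knockdown libraries address whether siRNA against HMGB2, which also fell in old cells, moves these genes from their level in WT. That level was low for the members called in old cells. Against I79 young on genes shared by all tables, WT lay at log2 -1.76 for UHRF1, -1.10 for HELLS and -0.998 for DNMT1. Of 14 S-phase genes 12 were lower in WT by more than 0.6. WT was counted in another way, so cells and counting cannot be told apart. Whether knockdown would move these genes from a young level was not tested. HMGB2 stood at 122 and 141 CPM in the young columns and 38.2 and 46.3 CPM in the old ones. After knockdown, 0 of 8 members were called by edgeR's quasi-likelihood test, against 5.20% of 15338 genes tested, and DESeq2 called 0 as well. At an unadjusted p under 0.05 edgeR gave 2 of 8, HELLS and DNMT3A, where 23.9% of all genes tested reached it. The groups did not overlap for 3 members, HELLS, DNMT3A and TET3, all lower in HMGB2 KD, where 53.8% of all genes tested did not overlap. The median log2 fold change was -0.10 over the members and 0.0018 over all genes.

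HELLS measured 9.23 and 9.11 CPM in the WT libraries and 5.87 and 6.97 CPM in the knockdown libraries. Group means were 9.17 ± 0.087 CPM for WT against 6.42 ± 0.78 CPM after knockdown (SD, n = 2 each), and both knockdown libraries lay below both WT libraries. The log2 fold change was -0.51 (SE 0.19, edgeR adjusted p = 0.11). DNMT3A measured 29.4 and 35.6 CPM in the WT libraries and 21.9 and 28.4 CPM in the knockdown libraries, with a log2 fold change of -0.37 (SE 0.16, edgeR adjusted p = 0.17). TET3 measured 30.5 and 33.3 CPM in the WT libraries and 24.7 and 28.1 CPM in the knockdown libraries (log2 -0.27, SE 0.14, edgeR adjusted p = 0.25).

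UHRF1 and DNMT1, which fell in old cells, were not called after knockdown. UHRF1 measured 20.9 and 19.8 CPM in the WT libraries and 19.9 and 26.8 CPM in the knockdown libraries (log2 0.20, SE 0.16, edgeR adjusted p = 0.50). DNMT1 measured 67.0 and 67.2 CPM in the WT libraries and 58.8 and 70.2 CPM in the knockdown libraries (log2 -0.056, SE 0.13, edgeR adjusted p = 0.86). In both genes the second knockdown library was the highest of the 4 and the groups overlapped. DNMT3B measured 3.04 and 5.28 CPM in the WT libraries and 4.10 and 7.65 CPM in the knockdown libraries (log2 0.50, SE 0.32, edgeR adjusted p = 0.38). TET1 measured 9.49 and 11.4 CPM in the WT libraries and 12.2 and 8.68 CPM in the knockdown libraries, and TET2 measured 38.6 and 48.5 CPM against 41.5 and 37.4 CPM. Their log2 fold changes were -0.007 (SE 0.20) and -0.14 (SE 0.14).

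**Figure D4:**
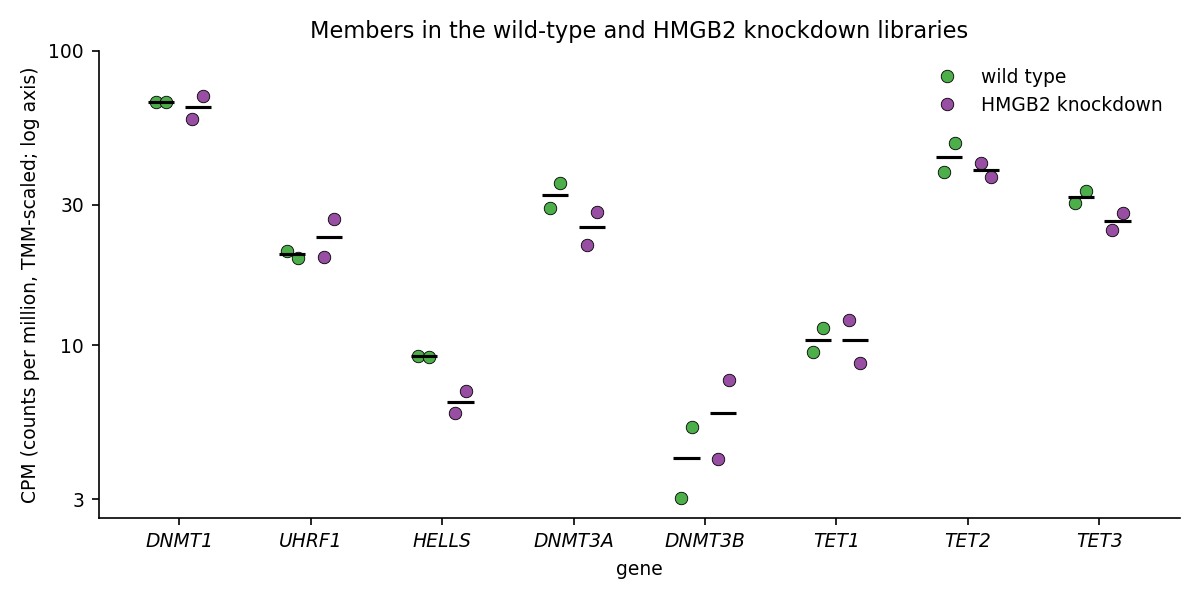
CPM (counts scaled to library size by TMM, log axis) of the 8 members in the 2 WT and 2 HMGB2 knockdown libraries, 1 point per library, with bars at the group means. The groups are apart for HELLS, DNMT3A and TET3 and overlap for the other 5.

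Among the companion lists, 0 of 14 S-phase genes, 0 of 9 tested partners and 0 of 7 tested readers were called after knockdown by edgeR, and DESeq2 called 0 in each of these lists. At an unadjusted p under 0.05 edgeR gave 1 S-phase gene, 2 partners and 1 reader. The S-phase median was -0.18. In active demethylation 2 of 15 tested genes rose, GADD45A (log2 0.73, SE 0.15), which also rose in old cells, and IDH2, a mitochondrial source of the TET cofactor 2-oxoglutarate (log2 0.68, SE 0.13). In methyl donor supply MTHFD2, a mitochondrial folate enzyme, rose (log2 1.25, SE 0.14) and MAT2B, a regulatory subunit of methionine adenosyltransferase, fell (log2 -1.20, SE 0.14), of 10 genes tested. MAT2B measured 89.9 and 82.9 CPM in the WT libraries and 41.2 and 34.0 CPM in the knockdown libraries. Of 12 germline genes edgeR tested 1 and DESeq2 gave values for 6, and 0 were called by either. All but MOV10L1 were under 1 CPM in these libraries, where a call could hardly arise. Of the fibroblast markers COL1A1, VIM and PDGFRB rose and COL3A1 fell, which was not tested as a part of the members' values. EHMT2, at between 40.4 and 55.3 CPM in the old and young columns, and MYH11 were at 0 in every WT and HMGB2 KD library, and ZBTB4 was under 1 CPM there.

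The ICM libraries address what the compound does to the same genes, with I79 young as the nearest control. All 8 members stood lower in the ICM libraries than in I79 young, by more than 0.6 on the log2 scale, on CPM over the 24638 genes listed in all kinds of table. By that measure 28.7% of the 14504 genes compared were lower, so a lower value is common here. The ICM reads were counted in another way than the I79 young table, and treatment and counting cannot be told apart, so no test was made. WT cells, counted in yet another way, were lower than I79 young by more than 0.6 for 22.9% of genes and for 3 of 8 members, DNMT1, UHRF1 and HELLS. I10 young, counted as I79 young was, passed 0.6 for 0 of 8 members, where 9.65% of all genes did.

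UHRF1 stood at 6.15 and 4.85 CPM in the ICM libraries (79.2 and 51.5 reads), at 74.8 CPM in I79 young and at 22.7 and 21.5 CPM in WT. The log2 ratio to I79 young was -3.75 (95% counting interval -4.02 to -3.48), and that of WT was -1.76. HELLS stood at 1.27 and 2.05 CPM (16.3 and 21.8 reads) against 21.4 CPM in I79 young, a log2 ratio of -3.65 (interval -4.26 to -3.24), with WT at -1.10. DNMT1 stood at 32.9 and 32.6 CPM against 145 CPM in I79 young, a log2 ratio of -2.15 (interval -2.27 to -2.03), with WT at -0.998. For these 3 genes, as for all other members, the ICM libraries lay below both WT and I79 young. The log2 ratio to WT alone was -1.99 for UHRF1, -2.55 for HELLS and -1.15 for DNMT1. For the other members it lay between -3.89 (TET1) and -1.70 (DNMT3A).

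For DNMT3A and the TET genes WT lay closer to I79 young. TET1 stood at 0.479 and 0.910 CPM in the ICM libraries, on 6.17 and 9.67 reads, against 10.1 CPM in I79 young and 10.3 and 12.4 CPM in WT. Its log2 ratio to I79 young was -3.73 (interval -4.73 to -3.14), and the old I79 column lay at -0.86 on the same scale. TET3 stood at 5.28 and 5.08 CPM against 26.9 CPM (log2 -2.35), and TET2 at 11.9 and 10.7 CPM against 50.03 CPM (log2 -2.14). DNMT3A stood at 10.3 and 11.1 CPM against 34.6 CPM (log2 -1.68), and DNMT3B at 1.24 and 1.04 CPM, on 16 and 11 reads, against 6.57 CPM (log2 -2.43). WT lay between -0.58 (DNMT3B) and 0.36 (TET3) for these 5 genes.

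The ICM reads were also split by region. In DNMT1 97.2% and 98.0% of reads fell in the coding region, while in TET1 16.2% and 20.7% did and in TET3 47.1% and 42.6%, against 61.1% and 61.9% over all genes. HELLS had 8 coding reads in each library beside 8.33 and 10.8 reads in its 3′ UTR. With UTR reads left out, the log2 ratio was -4.21 for HELLS, -5.08 for TET1, -2.87 for TET3 and -1.56 for DNMT1, and all 8 members stayed past 0.6. UTR reads could be left out of the ICM libraries only, the I79 young table holding whole transcripts, so the sides of this ratio are unlike and it moves with a gene's coding share by construction. Ratios also moved with mRNA length: with genes in 4 equal classes by MANE transcript length, their median was 0.26 in the shortest class and -0.30 in the longest, which holds DNMT3A, TET1, TET2 and TET3. In the longest class 38.7% of genes were lower past 0.6. The part of length and of read region in the values of the members was not tested.

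**Figure D5:**
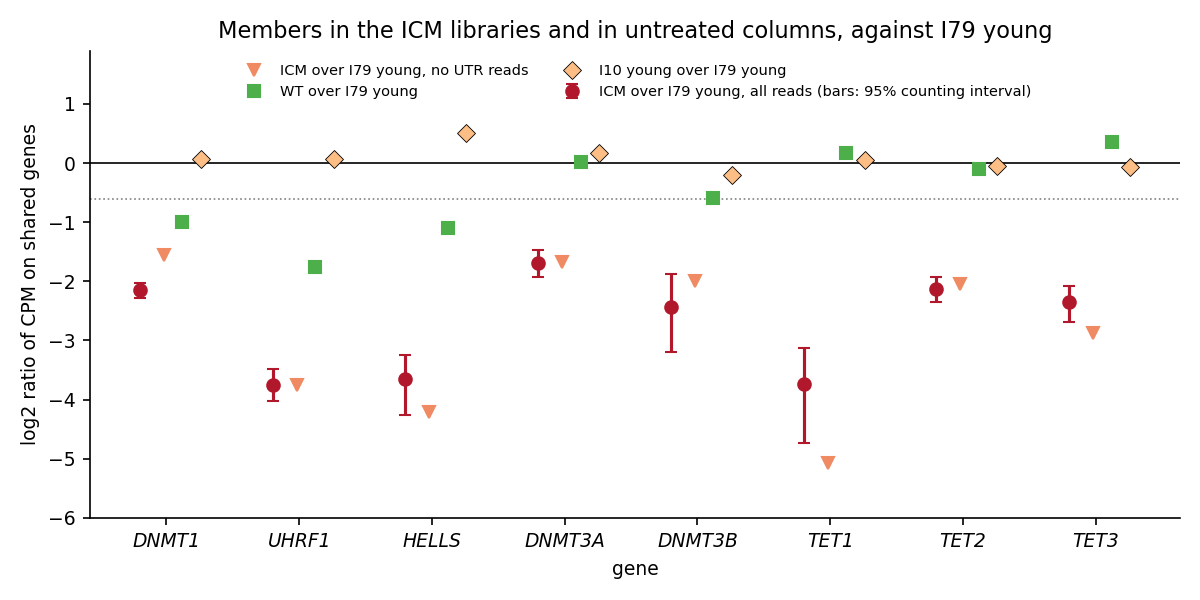
Log2 ratios of CPM over shared genes against the I79 young column: ICM mean of 2 libraries with 95% counting intervals (circles), ICM without UTR reads (triangles), WT mean of 2 libraries (squares) and I10 young (diamonds). All 8 circles lie below the dotted line at -0.6, and WT lies below it for DNMT1, UHRF1 and HELLS.

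Beside them, 10 of 10 compared partners were lower past 0.6 in the ICM libraries (median -1.19) and 13 of 14 S-phase genes (median -3.11), where WT gave 5 of 10 and 12 of 14. The exception in S phase was MCM4, which stood at 1.53 CPM in I79 young, at 21.9 and 19.5 CPM in the ICM libraries and at 40.5 and 38.8 CPM in WT. Of the 8 readers 3 were lower and 1 was higher, with a median of 0.03, and of 11 genes of methyl donor supply 6 were lower and 1 higher, with a median of -0.95. Of the 8 fibroblast markers 5 were lower and 0 higher past 0.6, with a median of -1.54, PDGFRA standing at -3.79, PDGFRB at -2.12, COL1A1 at -2.09 and COL3A1 at -2.01. Of the markers of other cell types, CD68 stood at 1.36 and DES at 1.61. Their part in the values of the members was not tested. GADD45A stood at 124 and 131 CPM in the ICM libraries against 26.4 CPM in I79 young and 31.4 and 30.4 CPM in WT. Of the 12 germline genes 3 were compared, 2 higher and 1 lower past 0.6, with a median of 0.70. SYCP3 stood at 3.96 and 3.20 CPM in the ICM libraries, against 0.073 CPM in I79 young and 0.190 and 0.116 CPM in WT. MOV10L1 stood at 0.854 and 0.737 CPM in the ICM libraries, against 11.3 CPM in I79 young. Treatment and counting cannot be told apart for these genes either.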

How the data were processed

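The members and the gene lists were chosen with earlier results of these data known. Per the labels, poly(A) RNA was prepared with the TruSeq kit, and the submitters' processing notes name STAR 2.6.0c, featureCounts, DESeq2, deepTools and GRCh37. For the old and young groups the authors deposited estimated counts and TPM per transcript, 1 table per group of 2 samples, and whether it pools them is not stated. For WT and HMGB2 KD they deposited raw counts per gene and library, in which summary rows, between 16.9% and 18.0% of the total, were left out. For ICM they deposited estimated counts per gene and region, fractional where reads were shared, with the aligner not given in the sources used here. The study's methods describe independently grown replicas for the ribosome profiling series, with part of each lysate kept for RNA, to which the ICM tables appear to belong. For WT and HMGB2 KD no source used here says whether the replicates were separate cultures, so their p-values measure a spread that may be technical. No replicate pair agreed within sampling noise.

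Transcript counts were summed per gene through GENCODE 44 lifted to GRCh37 and rounded. Tests used edgeR 4.0.16 in R 4.3.3 (quasi-likelihood, TMM, filterByExpr, Benjamini-Hochberg over all genes), with isolate as a covariate for age, which leaves 1 residual degree of freedom. The standard error is the log2 fold change over the square root of F. ICM ratios used log2 CPM with a prior count of 2 and genes of at least 0.5 CPM in 2 columns. Older symbols were replaced where unambiguous. Intervals are exact Clopper-Pearson 95% intervals, cover counting error only and carry no replicate error. Named genes were the members, the called genes of each list (at most the 4 largest changes per comparison), list genes at 0 in a whole group, the 3 nearest genes and transcripts with at least 10% of a gene's counts. UHRF2, PCLAF, MCM4, MOV10L1, the uncalled fibroblast markers and ZBTB4 in the knockdown tables were named after their values were seen. So were GADD45A, SYCP3, the fibroblast markers, CD68 and DES in the ICM libraries. The scripts were tested on simulated data.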

Additional observations from a re-analysis of the deposited data

How the results depend on the processing

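In old against young, 3 members were called with DESeq2, with length-scaled counts and without the isolate covariate, where HELLS was lost and TET3 gained. With plain library totals, with no filter on low counts and at an adjusted p under 0.05 there were 5, DNMT3A and TET3 being added. In 1 isolate alone, with no test, 6 (I79) and 5 (I10) members passed 0.6. All 8 members stayed lower under each of these settings. For 1 isolate alone the share of all genes past 0.6 was not computed. Length-scaled counts called 1871 genes in all, and the fit without the isolate covariate called 1748. Plain totals moved the median of all genes from -0.009 to -0.22 and the calls from 856 higher and 560 lower to 1026 higher and 2122 lower, and called 6 partners and 12 S-phase genes lower; DESeq2 called 2113 genes in all, no filter 4257, an adjusted p under 0.05 3846.

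After HMGB2 knockdown 0 members were called under every setting tried, also without any 1 library. Some directions turned, none of them called: TET1 was 0.022 with 1 RUVs factor, and without 1 library TET1 ranged from -0.28 to 0.22, TET2 from -0.30 to 0.026, DNMT1 from -0.19 to 0.056, DNMT3B from -0.019 to 0.95 and UHRF1 from -0.028 to 0.39; the cause was not tested. The turns came without WT replicate 2 (TET1 0.13, TET2), HMGB2_KD replicate 1 (DNMT1) and HMGB2_KD replicate 2 (DNMT3B, UHRF1, TET1). Over all genes 797 were called, between 312 and 999 without 1 library, 1187 at an adjusted p under 0.05 and 385 higher and 484 lower with plain totals, against 438 and 359. With the replicate block the count was 0 members and 1243 genes; replicates share only a number (r = 0.12 between deviations of the same number in 2 pairs), so this is no paired design.

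The ICM count was 8 under every alternative tried. DNMT3B and TET1 in the ICM libraries and HELLS there and in I79 old rest on few reads, and 1 table per age and isolate limits the old and young comparison. Of 216 values recomputed under an alternative, 7 turned direction, 1 lost and 7 gained a call, and 16 moved by more than the replicate spread or, for counts, by over 1.5 times.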
